A study of Homo sapiens with 9 samples.

Results

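The genes described here are 38 collagens, laminins and other matrix genes, measured in human neuroepithelial cultures grown on flat, concave and convex plates. They are a list of symbols that uses no measured value in its rule, but it was drawn up with earlier results of these data known. Each matched 1 Ensembl identifier among the 62710 in the count table. Of the 38, 37 had enough counts to be tested. The exception was COL3A1, the fibrillar collagen of soft connective tissue, with 0 to 9 counts per library. The members fall by role into 5 network and multiplexin collagens, 12 fibrillar and associated collagens, 6 laminin chains, 6 basement membrane linkers, 7 interstitial glycoproteins and proteoglycans, and 2 crosslinking enzymes.

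All cultures came from 1 established line of human embryonic stem cells, H9, of WT genotype. For 72 h the cells were kept pluripotent on silicone (PDMS) plates coated with Matrigel. They then spent 48 h in N2B27 medium with SB431542 and LDN, which together inhibit SMAD signalling from TGF-beta and BMP receptors. For the last 24 h, under the same inhibitors, the plate was bent into a concave or a convex form or stayed flat as the control. All groups therefore share the line, the coating and the inhibitors, and the model is 1 cell line. Each group had 3 libraries, named here by plate form and by the replicate number in the labels. The labels do not say whether the 3 were grown as independent cultures. A p-value below therefore sets a difference only against the spread of these libraries, and that spread may be technical.

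A basement membrane is a thin sheet under an epithelium, and the neuroepithelium rests on one. Laminins, trimers of an alpha, a beta and a gamma chain, and collagen IV, a trimer of alpha chains, each form a network, and nidogens, perlecan and agrin tie the networks to each other and to cells. Fibrillar collagens, fibronectin and fibrillins build the fibres of the matrix around it, and lysyl oxidases crosslink them. Matrigel is itself a mouse basement membrane extract rich in laminin and collagen IV, so the RNA measured here is the cells' own and says nothing of the protein supplied with the plate.

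Collagen IV genes lie in head-to-head pairs, and the DNA between the starts of 2 such pairs is shown because the values of each pair are compared below. The sequences are those of RefSeq on GRCh38.p14, whose promoter table held an entry for 27 of the 38 members. The first is the plus strand at chr13:110307158-110307283, the 126 bases that part the RefSeq starts of COL4A1 (minus strand) and COL4A2 (plus strand). The second is the plus strand at chrX:108439588-108439837, the 250 bases before the start of COL4A5, within the 379 bases that part it from the start of COL4A6. Capitals mark CCAAT and GGGCGG, searched on both strands with TATAAA.
COL4A1 and COL4A2: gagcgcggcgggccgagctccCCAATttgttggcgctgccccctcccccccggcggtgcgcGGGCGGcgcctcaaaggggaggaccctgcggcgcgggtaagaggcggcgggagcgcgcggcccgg
COL4A5: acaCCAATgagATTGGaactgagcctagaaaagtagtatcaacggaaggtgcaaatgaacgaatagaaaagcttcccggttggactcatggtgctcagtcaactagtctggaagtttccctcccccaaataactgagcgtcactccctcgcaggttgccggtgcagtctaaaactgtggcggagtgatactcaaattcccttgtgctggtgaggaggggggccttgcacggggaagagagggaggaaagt
The first stretch was 80.2% G or C and held 1 CCAAT, 1 GGGCGG and 0 TATAAA. Windows of 126 bases before the start held these words in 21.1%, 34.6% and 5.87% of 35116 RefSeq promoters. The second was 51.2% G or C and held 2 CCAAT words, 1 on each strand, and 0 of either other word. In windows of 250 bases the shares were 32.0%, 42.6% and 10.7%.

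Libraries held 49420082 (flat 2) to 64763412 (concave 1) counts on genes, of which the members took 0.482% in flat 2 and 0.639% to 0.793% in the other 8. Values are CPM, counts scaled to a common library size with TMM factors, unless named otherwise. Libraries differed in ways that bear on every result. Library flat 2 stood apart by transcript length: the median gene of up to 1000 bases was 0.34 above its mean over the 9 libraries on the log2 scale, and the median gene over 6000 bases was 0.55 below it. The cultures carried markers of both early neuroectoderm and pluripotency. Of 14 early neuroectoderm markers, led by SOX2 at a mean of 682 CPM, only NR2F1 stayed under 1 CPM in every library. The 3 libraries numbered 3 stood apart in cell type markers. Summed markers of early neuroectoderm were 1104 to 1440 CPM there and 2414 to 3572 in the other 6. Summed pluripotency markers were 4338 to 4475 CPM against 2631 to 3066. LIN28A led these 14 markers at a mean of 1623 CPM, while NANOG and FGF4 stayed under 1 CPM in every library. Fewer cells of a type and less RNA per cell cannot be told apart in such bulk libraries.

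Per length, SPARC, FBLN1 and COL1A1 led the members and COL3A1 came last. Levels between genes are compared as RPKM, which is CPM per 1000 bases of transcript. SPARC, a collagen-binding glycoprotein, averaged 167 RPKM, FBLN1 (fibulin 1, a basement membrane and elastic fibre protein) 146 and COL1A1 124. Next stood the basement membrane members AGRN at 68.5 and COL18A1 at 66.05, followed by COL6A1 at 57.95, COL1A2 at 55.6 and COL4A2 at 51.9. A total of 15 members averaged more than 20 RPKM. At the other end were COL6A3 at 0.571, LAMA4 at 0.393, LOX at 0.183 and COL3A1 at 0.0125. The first 3 members exchanged places between libraries, as their ranges overlapped: 120.5 to 236 for SPARC, 83.04 to 226 for FBLN1 and 68.7 to 208 for COL1A1.

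**Figure D1:**
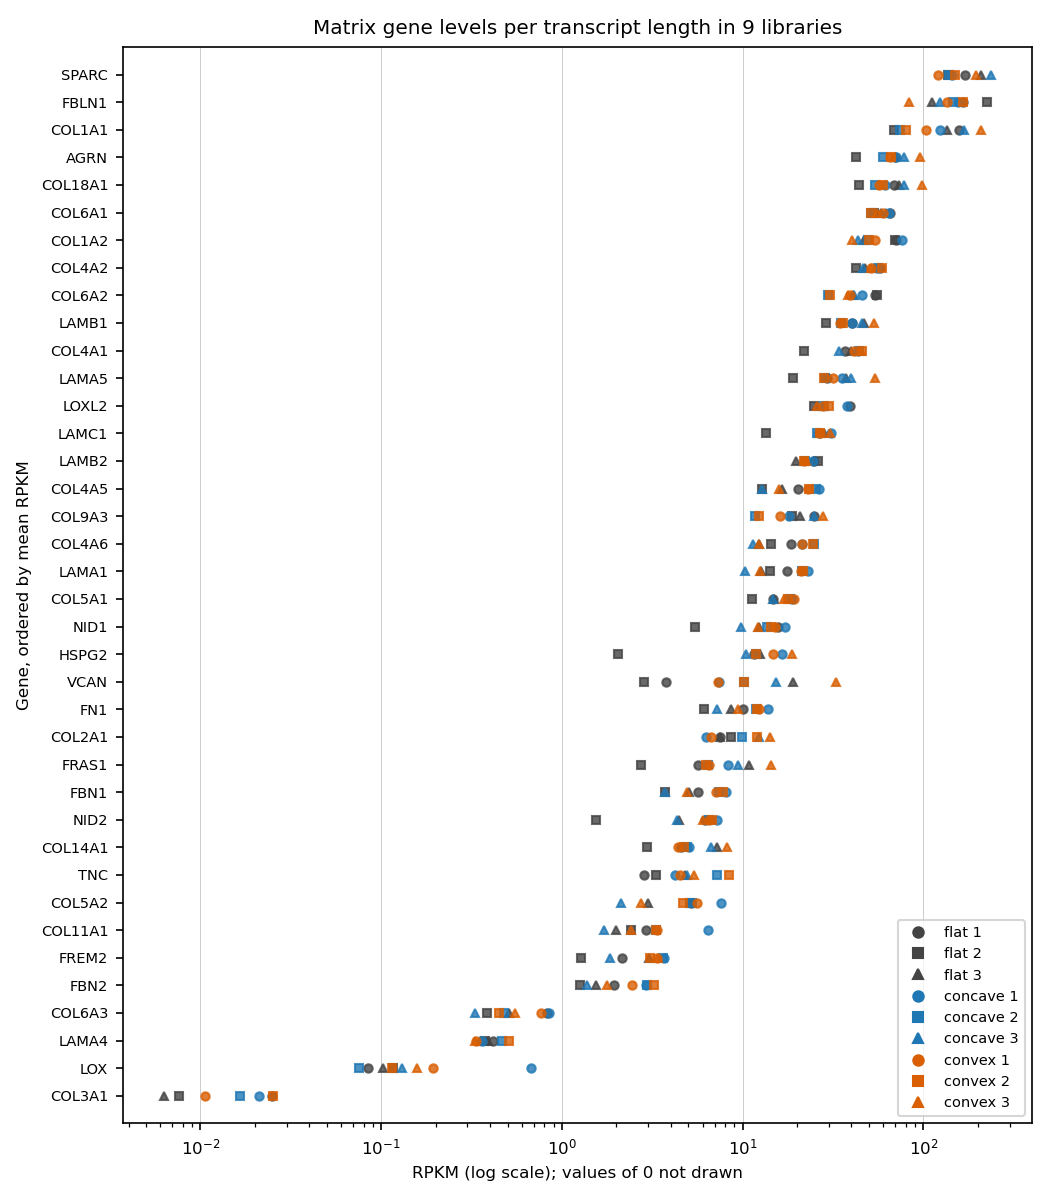
RPKM (log axis) of the 38 matrix genes, 1 point per library, ordered by mean RPKM, with colour for plate form and shape of the point for replicate number. SPARC (mean 167 RPKM), FBLN1 and COL1A1 lead and LOX and COL3A1 come last; flat 2 (dark squares) is the lowest point in many rows.

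Fibroblasts make many of these proteins in other tissues. Of 12 fibroblast and mesenchyme markers, 7 (TWIST1, PRRX1, DCN, LUM, POSTN, TCF21 and FOXF1) stayed under 1 CPM in every library. The list summed to 135 to 188 CPM, led by THY1 at a mean of 126. Markers of primitive and parietal endoderm, the embryonic cells known for making thick basement membrane, summed to 3.40 to 5.10 CPM in libraries numbered 1 and 2 and to 12.2, 13.6 and 18.7 in those numbered 3. Of those 10 markers, GATA4, GATA6, SOX17, SOX7 and TTR were among the 6 that stayed under 1 CPM in every library. This list shares a marker with the fibroblast list and another with the notochord list counted below. The part of any such cells in the values below was not tested.

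Between plate forms, 0 of 37 members passed edgeR's quasi-likelihood test in any of the 3 comparisons, as did 0% of the 23075 genes tested. Most members were nevertheless somewhat higher on both curved plates than on the flat one. Against flat, 30 of 37 members (81.1%) had a positive log2 difference on concave plates, where 51.6% of all genes did, with a median of 0.28 against 0.014 over all genes. On convex plates 27 of 37 (73.0%) did, against 50.8% of all genes, with a median of 0.31. Long genes in general were also higher. The 2255 genes over 6000 bases, 23 of them members, had medians of 0.22 (concave) and 0.30 (convex). The 3083 genes over 4000 and up to 6000 bases, 9 of them members, had medians of 0.12 and 0.15. Both comparisons use the same 3 flat libraries. Between concave and convex plates 12 of 37 members were higher on concave ones (background 49.3%), with a median of -0.035. The libraries of these 2 forms overlapped for all 37, where 1.49% of all genes stood clear above and 2.08% clear below.

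Single libraries moved this excess over flat, flat 2 most of all. Without flat 2, the median difference was 0.036 on concave and 0.11 on convex plates, with 22 and 23 of 37 members positive (all genes 50.6% and 49.3%). Without concave 1 the concave median was 0.12, with 28 positive, and without convex 3 the convex median was 0.17, with 24 positive. Within replicate numbers 1, 2 and 3, the concave median was 0.20, 0.49 and -0.11 and the convex median 0.022, 0.57 and 0.18, so that each was largest for the number of flat 2. With each library corrected for its own trend of level on transcript length, the medians were 0.054 and 0.051, and with flat 2 also left out they were -0.012 and -0.035, with 16 of 37 members positive in both. At an unadjusted p under 0.05 stood 0 members for concave plates against flat (4.54% of all genes) and 0 for concave plates against convex (0.282%). For convex plates against flat, 3 members did, TNC, COL5A1 and COL6A2. They are 8.11% of the members, where 9.25% of all genes reached that level. Convex and flat libraries did not overlap for COL4A1, COL5A1 and FREM2, higher on convex plates (8.11% of members, 8.91% of all genes), and for COL6A2, lower there (2.7% against 7.76%). Concave and flat libraries overlapped for all 37, where 3.78% of all genes stood clear above and 2.96% clear below.

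Flat 2 was the lowest of the 9 libraries for 20 of 37 members (54.1%, against 29.9% of all genes) and the highest for 3 (8.11% against 27.7%). The members are long: their transcripts run from 2491 to 16070 bases with a median of 6570, and all 37 exceed the median tested gene, at 2314. In flat 2, 30 of 37 lay below the mean of flat 1 and flat 3, with a median log2 difference of -0.46. The trend over all genes, read at the members' lengths, gave a median of -0.44 and was negative for 36 of them. Across genes, which are not independent replicates, this difference went with log2 length at Pearson r = -0.16 and Spearman rho = -0.32 over 21940 genes, and at -0.53 and -0.49 over the 37 members. Some members lay far below that trend. HSPG2, perlecan, chosen here after its values were seen, stood at 29.4 CPM in flat 2 and between 149.9 and 268 in the other 8. Its difference was -2.55, where the trend gives -0.61. NID2 (nidogen 2), also chosen so, stood at 7.45 against 20.96 to 34.9, a difference of -1.76 where the trend gives -0.31. FBLN1, of 2896 bases, lay above the trend, at 653 CPM in flat 2 and 240.5 to 482 elsewhere. What set flat 2 apart was not tested.

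**Figure D2:**
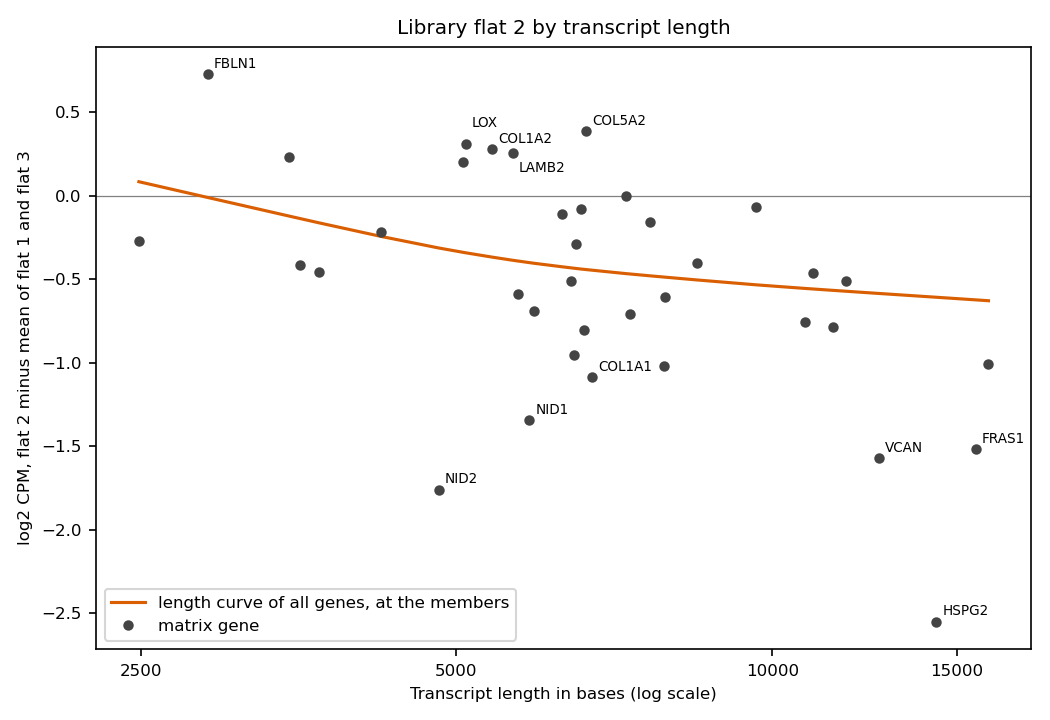
Difference of log2 CPM between library flat 2 and the mean of flat 1 and flat 3 (vertical axis) against transcript length in bases (horizontal axis, log scale) for the 37 tested matrix genes (points), with the trend over all genes at the same lengths (line). Of the points, 30 lie below 0, and HSPG2, NID2, VCAN, FRAS1 and NID1 lie furthest under the line.

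Replicate number, rather than plate form, parted the members. Between the 3 libraries numbered 3 and the 6 numbered 1 and 2, with plate form as a term, 14 of 37 members passed edgeR's test (37.8%), against 17.9% of all genes. That libraries numbered 3 stand apart was known beforehand from these data, and the p-values do not allow for that choice. The members moved both ways: 8 were higher in libraries numbered 3 (21.6%, background 8.79%) and 6 lower (16.2%, background 9.14%), and the median over all 37 was -0.082, with 17 positive (background 50.9%). At an unadjusted p under 0.05 stood 20 (54.1%, background 32.5%). Among genes of at least 10 CPM and 4000 bases, 17.2% passed, as did 12 of the 29 members (41.4%) of that range. Within each plate form, number 3 differed from the mean of numbers 1 and 2 in the same direction for each of these 14. They were picked by a test on these same libraries, which favours such agreement, so it is no separate support. The libraries did not overlap for 7 members that were higher (18.9%, background 11.7%) and 5 that were lower (13.5%, background 12.5%). Cell type markers also moved between these libraries. Early neuroectoderm had 0 markers higher and 9 lower of 13 tested, pluripotency 9 and 0 of 14, and amnion and non-neural ectoderm 5 and 0 of 9. Notochord and floor plate had 4 higher and 1 lower of 5, fibroblast and mesenchyme 3 and 1 of 8, primitive and parietal endoderm 3 and 0 of 6, endothelium and blood 2 and 3 of 7, and neural crest 1 and 2 of 7. Some markers stand in 2 lists: the largest rise in the notochord and in the endoderm list, 5.31 on the log2 scale, was that of the same gene. The part of these markers in the members' values was not tested. What the numbers stand for in the laboratory is not given in the sources used here.

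**Figure D3:**
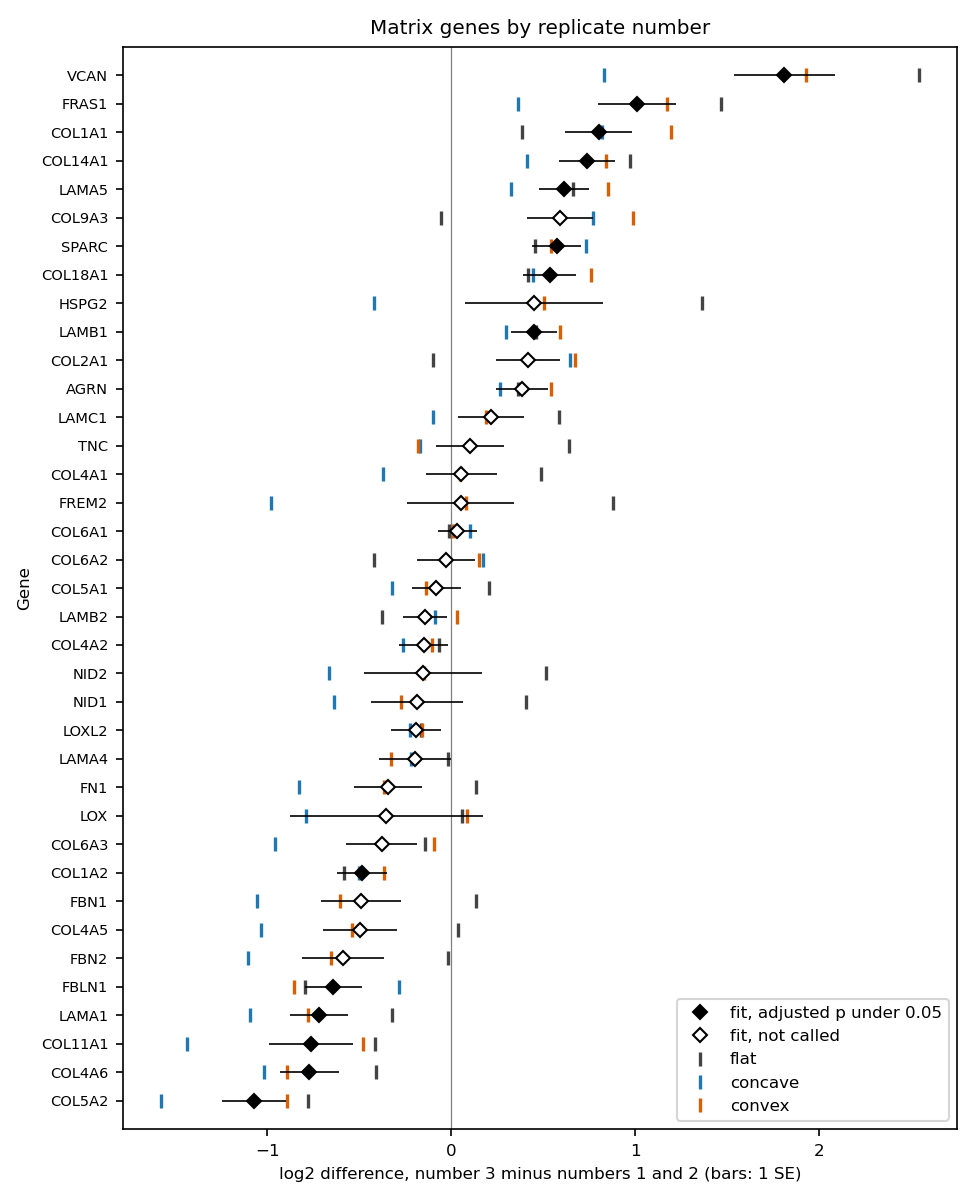
log2 difference between libraries numbered 3 and those numbered 1 and 2 for the 37 tested matrix genes, with the fitted value (diamond), 1 standard error (bar) and the 3 plate forms apart (coloured ticks); filled diamonds passed the test. VCAN at 1.81 and COL5A2 at -1.07 lie at the ends. For each gene that passed, the ticks lie on 1 side of 0, which selection by the test on the same libraries favours.

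The count of 14 rested in part on single libraries. Without convex 3, 2 members passed, VCAN and COL5A2, as did 1077 of 23713 genes (4137 of 23075 with all 9 libraries). Without flat 2, 21 members and 5575 of 23755 genes passed. Without concave 1, concave 3, convex 1 or convex 2, 7 members passed in each case. Calls over all genes changed too, with gene counts between 1077 and 5575, so the 7 are not read as above or below a background. With the length correction 20 members passed, 9 higher and 11 lower, where 12.4% and 11.5% of 21940 genes did. VCAN and COL5A2 passed under each of 19 alternatives, and all 14 kept their direction under each. The alternatives reuse the libraries by which the 14 were picked, so the kept direction is no separate support. Between libraries numbered 2 and 1, 0 members passed (background 0%), and with the length correction 0 did as well (0.00912% of genes passed as higher). At an unadjusted p under 0.05 stood 5 members (13.5%, background 8.54%). In number 2, 31 of 37 were lower (22 without flat 2), where 47.9% of all genes were higher with all 9 libraries. Genes over 6000 bases in general had a median of -0.15 there. Of the 37 members, 1 lay clear above number 1 (2.7%, background 6.75%) and 5 clear below (13.5%, background 8.1%).

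Of the 5 network collagens, 1 passed as higher in libraries numbered 3 (COL18A1) and 1 as lower (COL4A6), where 8.79% and 9.14% of all genes did. With 1 gene each way, this is not read as a trait of the group. COL18A1, the multiplexin of epithelial and vascular basement membranes (chromosome 21, 45405137 to 45513720, plus strand), stood at 405, 259 and 432 CPM in flat libraries 1 to 3, at 363.5, 320.5 and 464 on concave plates and, among convex ones, at 337, 354 and 585. The library numbered 3 was the highest of its plate form each time. The log2 difference by number was 0.53 ± 0.14 (SE), edgeR adjusted p = 0.0327. COL4A2, a chain of the collagen IV found in all basement membranes (chromosome 13, 110305812 to 110513209), was among the steadiest, at 373, 277 and 307 CPM in flat, 359, 366 and 302 in concave and 335, 383 and 333 in convex libraries. It differed by -0.15 ± 0.13 (edgeR adjusted p = 0.479). COL4A6, a chain of a more restricted collagen IV, fell from 137 ± 25.7 CPM (SD, n = 6) to 78.9 ± 3.33 (SD, n = 3), by 0.77 ± 0.16 on the log2 scale with edgeR adjusted p = 0.0121.

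Its neighbour COL4A5 stood at 141 ± 32.2 and 96.7 ± 12.9 CPM, a difference of -0.50 that missed the threshold (edgeR adjusted p = 0.124) and passed with the length correction (-0.58, edgeR adjusted p = 0.00732). COL4A1 did not differ by number, at 257 ± 59.2 and 261.5 ± 36.4. On plates, the 5 network collagens were all above flat in both comparisons, by 0.066 to 0.40 on concave plates and 0.13 to 0.43 on convex ones, and 0 passed. Their medians of 0.31 and 0.34 became 0.093 and 0.18 without flat 2, with 4 and 5 of 5 positive, and 0.11 and 0.082 with the length correction, with 3 and 4 of 5 positive. COL4A1 led on convex plates, at 0.43 ± 0.22 (edgeR adjusted p = 0.513), with flat 2 at 144.5 CPM and the other 8 at 224 to 304. COL4A1 and COL4A2 overlap on opposite strands in the annotation, so their reads can be told apart only if strand was used in counting, which the sources used here do not give.

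The chains of collagen I moved in opposite directions by replicate number. COL1A1, the alpha 1 chain of collagen I (chromosome 17, 50183289 to 50201632), stood at 1056, 462 and 912 CPM in flat libraries 1 to 3, at 826, 502 and 1134 in concave libraries and at 692, 542 and 1401 in convex libraries. The library numbered 2 was the lowest of each plate form, and those numbered 3 were the highest on curved plates but not on flat ones. By number 3 the difference was 0.80 ± 0.18 (edgeR adjusted p = 0.017), and by number 2 against 1 it was -0.78 ± 0.21 (edgeR adjusted p = 0.470). COL1A2, the alpha 2 chain of the same protein (chromosome 7, 94394561 to 94431232), went the other way, at 382, 377 and 254 CPM in flat, 410.1, 268 and 234 in concave and 292, 271.5 and 219 in convex libraries. The 3 libraries numbered 3 were lower than the other 6, by 0.49 ± 0.14 on the log2 scale, edgeR adjusted p = 0.038.

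Of the collagen V chains, COL5A2 fell and COL5A1 did not pass. COL5A2 (chromosome 2, 189031896 to 189225312), which with COL5A1 makes the collagen that starts collagen I fibrils, stood at 34.3, 34.2 and 19.97 CPM in flat, 50.5, 34.8 and 14.04 in concave and 37.05, 31.2 and 18.3 in convex libraries. Those numbered 3 lay below all others. The difference was -1.07 ± 0.18 (edgeR adjusted p = 0.00447). COL5A1 (chromosome 9, 134641774 to 134844843) stood at 125, 94.9 and 126 CPM in flat, 159, 155 and 125 in concave and 163, 152 and 143 in convex libraries, with no difference by number that passed (-0.082 ± 0.13, edgeR adjusted p = 0.714). It was higher in every convex than in every flat library, by 0.41 ± 0.16 (edgeR adjusted p = 0.513, 0.28 without flat 2 and 0.092 with the length correction).

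COL11A1, which joins collagen V chains in fibrils, stood at 21.1, 17.4 and 14.4 CPM in flat, 46.8, 24.2 and 12.45 in concave and 24.5, 24.2 and 17.5 in convex libraries, and passed by number at -0.76 ± 0.23 (edgeR adjusted p = 0.0489). Concave 1 was far above the rest. Its difference between concave and convex plates, 0.33, became -0.26 without that library. COL14A1 (chromosome 8, 120059780 to 120372036), a collagen that decorates fibrils, stood at 29.6, 19.2 and 46.7 CPM in flat, 32.7, 31.9 and 43.01 in concave and 28.55, 30.7 and 53.01 in convex libraries. All libraries numbered 3 exceeded the other 6, by 0.74 ± 0.15 (edgeR adjusted p = 0.0118).

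Collagen VI forms beaded filaments, and 0 of its 3 chains passed by replicate number 3 without the length correction. COL6A1 (chromosome 21, 45981737 to 46005050) had the narrowest range of the tested members, 277.5, 226 and 248 CPM in flat, 275, 218 and 262 in concave and 252, 216.5 and 236 in convex libraries, 1.28-fold from lowest to highest. COL6A2 stood at 188, 191.5 and 142 CPM in flat, 159, 102 and 144 in concave and 135, 105.5 and 133 in convex libraries. Every convex library lay below every flat one, by 0.48 ± 0.20 on the log2 scale (edgeR adjusted p = 0.513). COL6A3, the long alpha 3 chain, was low, at 8.86, 4.13 and 5.48 CPM in flat, 9.15, 5.15 and 3.54 in concave and 8.21, 4.83 and 5.89 in convex libraries. Libraries numbered 2 were below those numbered 1, by 0.89 ± 0.22 (edgeR adjusted p = 0.426), and this had the smallest p of a member in that comparison. By number 3 it differed by -0.38 (edgeR adjusted p = 0.215), and with the length correction it passed as lower (-0.48, edgeR adjusted p = 0.0452).

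The remaining fibrillar members did not pass in any comparison. COL9A3, a chain of the cartilage collagen IX, stood at 60.9 ± 8.69 CPM in libraries numbered 3 and 42.2 ± 12.04 in the other 6 (difference 0.59 ± 0.18, edgeR adjusted p = 0.0511), and passed with the length correction (edgeR adjusted p = 0.0222). COL2A1, the collagen of cartilage and notochord sheath, ranged from 31.9 to 72.1 CPM.

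**Figure D4:**
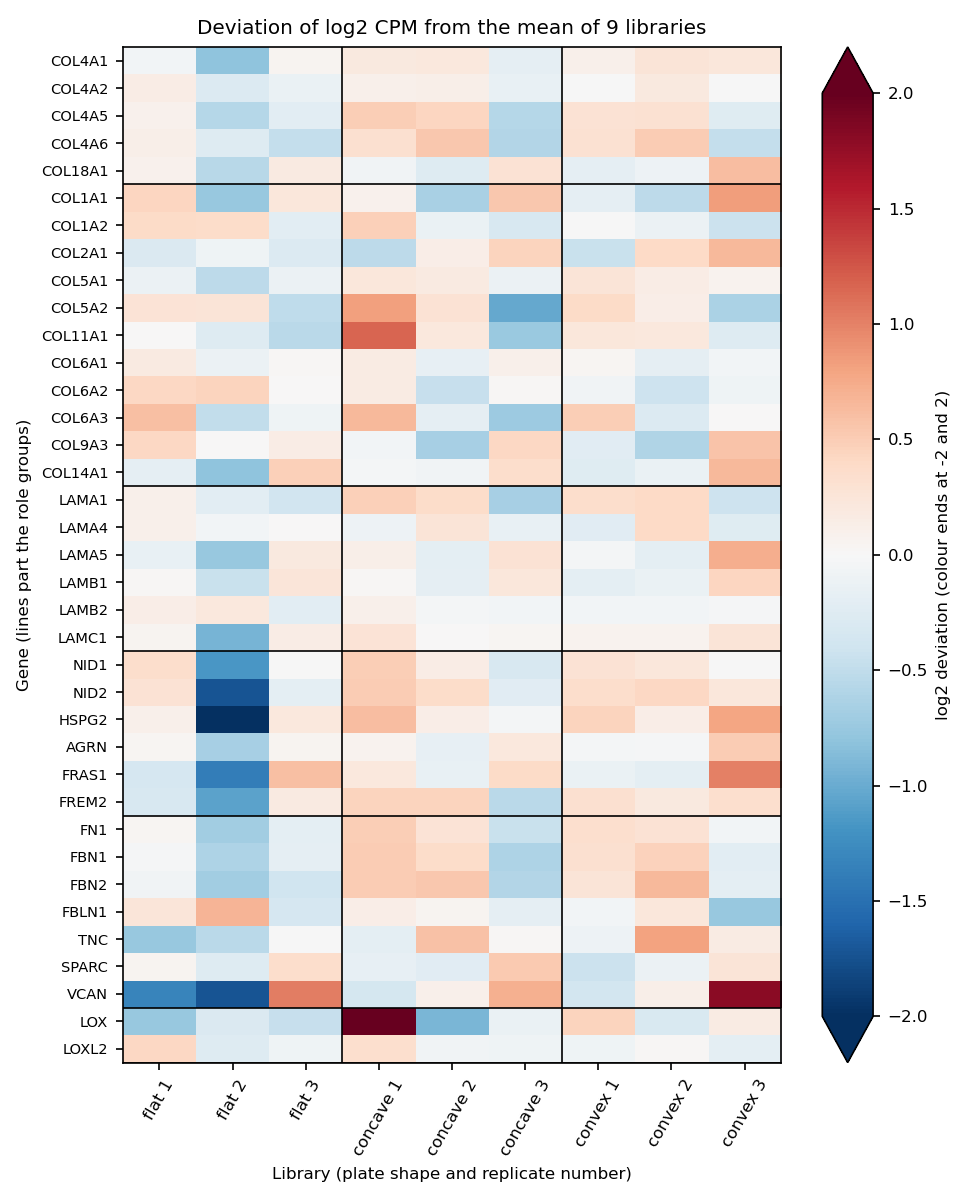
Deviation of log2 CPM from the mean over 9 libraries for the 37 tested matrix genes (rows, parted by role) in each library (columns, parted by plate form). Flat 2 is the lowest of the 9 libraries for 20 of the 37 genes, and the rows of VCAN, FRAS1 and COL1A1 are red and of COL5A2, LAMA1 and COL4A6 blue in the libraries numbered 3.

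Among laminins, the alpha chains moved in opposite directions by replicate number. LAMA5, the broadly made alpha chain of mature basement membranes (chromosome 20, 62307955 to 62367312), stood at 334, 218 and 426.5 CPM in flat, 403, 325 and 454 in concave and 360.4, 323 and 615 in convex libraries. Each library numbered 3 was above the other 6, by 0.61 ± 0.14 (edgeR adjusted p = 0.0157). LAMA1, the alpha chain of the early embryo (chromosome 18, 6941744 to 7117814), fell from 191 ± 31.3 CPM (SD, n = 6) to 114 ± 12.2 (SD, n = 3), with no overlap, by 0.72 ± 0.16 on the log2 scale (edgeR adjusted p = 0.0148). The beta chain LAMB1 (chromosome 7, 107923799 to 108003255) stood at 229, 165 and 267 CPM in flat, 229.7, 199.6 and 263 in concave and 197.5, 206 and 304 in convex libraries. It was higher in all 3 numbered 3, by 0.45 ± 0.12 (edgeR adjusted p = 0.0386).

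The other laminin chains did not pass. LAMC1, the gamma chain shared by most laminins, stood at 224 ± 16.95 CPM in libraries numbered 3 and 198 ± 47.1 in the rest, with flat 2 alone at 106. LAMB2, a beta chain of synapses, muscle and kidney, ranged from 111 to 149 CPM. LAMA4, an alpha chain of vessels and mesenchyme, ranged from 2.08 to 3.22 CPM. Between plate forms the 6 laminins had median differences of 0.17 on concave and 0.20 on convex plates against flat, which became -0.054 and -0.086 with the length correction.

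The basement membrane linkers were low in flat 2: relative to the mean of flat 1 and flat 3, log2 differences ran from -0.71 (AGRN) to -2.55 (HSPG2). All 6 were higher on concave and on convex plates than on flat ones, with medians of 0.41 and 0.55, and 0 passed. Without flat 2 the medians were 0.055 and 0.19, with 4 and 5 of 6 positive, and with the length correction 0.17 and 0.18. With both they were -0.037 and 0.037, with 2 and 3 of 6 positive. AGRN, agrin (chromosome 1, 1020123 to 1056118), stood at 508, 311 and 511 CPM in flat, 514, 438 and 569.8 in concave and 478, 484 and 701 in convex libraries. NID1, nidogen 1 (chromosome 1, 235975830 to 236065162), stood at 92.3, 32.04 and 71.9 CPM in flat, 100.9, 79.6 and 57.6 in concave and 88.07, 84.4 and 71.4 in convex libraries. In both, flat 2 was the lowest and the other flat libraries lay within the range of the curved ones. Without flat 2, flat means stood at 509 and 82.1 CPM. FRAS1, which with FREM2 anchors embryonic epithelia to the basement membrane, was the linker that passed by number, at 180.4 ± 40.3 CPM in libraries numbered 3 and 93.5 ± 28.3 in the rest (log2 difference 1.01 ± 0.21, edgeR adjusted p = 0.0127). FREM2 itself differed by 0.050 ± 0.29 (edgeR adjusted p = 0.929), at +0.88 on flat and -0.98 on concave plates.

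VCAN, versican, a large chondroitin sulfate proteoglycan (chromosome 5, 83471465 to 83582303), varied most, 11.55-fold from lowest to highest library. It stood at 47.6, 35.96 and 241 CPM in flat, 92.9, 128 and 194 in concave and 92.3, 129 and 415 in convex libraries. All libraries numbered 3 lay above the other 6, with means of 283 ± 117 (SD, n = 3) and 87.6 ± 39.2 (SD, n = 6). The difference was 1.81 ± 0.27, or 3.50-fold, with edgeR adjusted p = 0.00314, and it was 2.54 on flat, 0.83 on concave and 1.93 on convex plates. Between plate forms VCAN did not pass, at 0.35 ± 0.73 and 0.97 ± 0.74 above flat.

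SPARC (chromosome 5, 151661096 to 151687165) and FBLN1 (chromosome 22, 45502238 to 45601135), the leading members per length, moved in opposite directions. SPARC stood at 629, 507 and 773 CPM in flat, 536, 514 and 872 in concave and 446, 555.5 and 725 in convex libraries, and passed at 0.57 ± 0.13 (edgeR adjusted p = 0.020), with every library numbered 3 above the rest. FBLN1 stood at 482, 653 and 324 CPM in flat, 450.4, 424 and 359 in concave and 393, 480.0 and 240.5 in convex libraries. Every library numbered 3 lay below the rest, by 0.64 ± 0.15 on the log2 scale (edgeR adjusted p = 0.022).

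TNC, tenascin C, a glycoprotein of embryonic and remodelled matrix, had the smallest p of a member for convex against flat plates. It stood at 21.8, 25.3 and 36.5 CPM in flat, 32.2, 55.3 and 37.5 in concave and 34.3, 63.97 and 41.3 in convex libraries. Flat 1 and flat 2 were the lowest, while flat 3 lay within the range of both curved groups. The difference was 0.74 ± 0.29 on convex and 0.58 ± 0.29 on concave plates (edgeR adjusted p = 0.513 and 0.841), 0.67 and 0.52 without flat 2, and 0.46 and 0.36 with the length correction. Without convex 2 the convex difference was 0.42, and without concave 2 the concave one was 0.33.

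FN1, fibronectin, and the fibrillins FBN1 and FBN2, which form microfibrils, did not pass by number (-0.34, -0.49 and -0.59, edgeR adjusted p = 0.238, 0.151 and 0.103). With the length correction all 3 passed as lower in libraries numbered 3, with edgeR adjusted p = 0.0128, 0.00437 and 0.00497. In all 3, concave 3 was far below its partners, while flat 3 was not below the mean of flat 1 and flat 2 for FN1 and FBN1 (+0.13 each).

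The crosslinking enzymes did not pass in any comparison. LOXL2, which makes lysine crosslinks in collagen IV (chromosome 8, 23297189 to 23425328), stood at 140.0, 88.3 and 99.3 CPM in flat, 133, 100.2 and 98.96 in concave and 98.9, 107 and 91.8 in convex libraries. Groups overlapped throughout. LOX, which crosslinks fibrillar collagen and elastin, was near the floor, with 25 to 235 counts per library: 0.429, 0.589 and 0.524 CPM in flat, 3.43, 0.383 and 0.663 in concave and 0.986, 0.589 and 0.809 in convex libraries. Concave 1 stood alone. LOX had the smallest p of a member for concave against flat plates (1.54 ± 0.70, edgeR adjusted p = 0.841), and without concave 1 the difference was 0.0085.

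Ratios between related members put these differences on 1 scale, per length, and do not depend on library scaling. Some pairs join in 1 protein, as COL1A1 with COL1A2. LAMA1, LAMA4 and LAMA5 are alternative alpha chains, and LAMB1 and LAMB2 are alternative beta chains. Ratios within either set compare different laminins, not parts of 1 trimer. Between libraries numbered 3 and the other 6, 14 ratios were compared by a 2-sided exact permutation test over 84 arrangements, which cannot go below p = 0.0238, and several share a gene. LAMA1 to LAMA5 was 0.339, 0.261 and 0.231 in flat 3, concave 3 and convex 3, and 0.603 to 0.764 in the rest. COL1A1 to COL1A2 was 2.89, 3.89 and 5.15 against 0.986 to 2.22. COL5A1 to COL5A2 was 4.93, 7.01 and 6.14 against 2.18 to 3.82, and LAMB2 to LAMB1 was 0.421, 0.473 and 0.420 against 0.609 to 0.913. For these 4, for LAMA1 to LAMC1 (0.393 to 0.447 against 0.665 to 1.05) and for LAMA4 to LAMA1, the exact permutation p was 0.0238. This was the smallest possible p, and it became 0.0555 after Benjamini-Hochberg adjustment over the 14. Each of these ratios holds a member that passed the same comparison above, so these p-values are no separate support. Nor does any of the 14 allow for the prior knowledge that libraries numbered 3 stand apart, and the arrangements disregarded plate form.

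Other pairs kept closer to 1 value. FBN1 to FBN2 lay between 2.43 and 3.25 in all 9 libraries, and COL6A1 to COL6A2 between 0.962 and 1.74. The head-to-head pair COL4A1 to COL4A2, whose shared start region is printed above, was 0.512 in flat 2, 0.639 in flat 1 and 0.729 to 0.876 in the other 7 (exact permutation p by number 0.238). COL4A5 to COL4A6 lay between 0.887 and 1.33, with an exact permutation p of 0.0476 and 0.0833 adjusted.

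**Figure D5:**
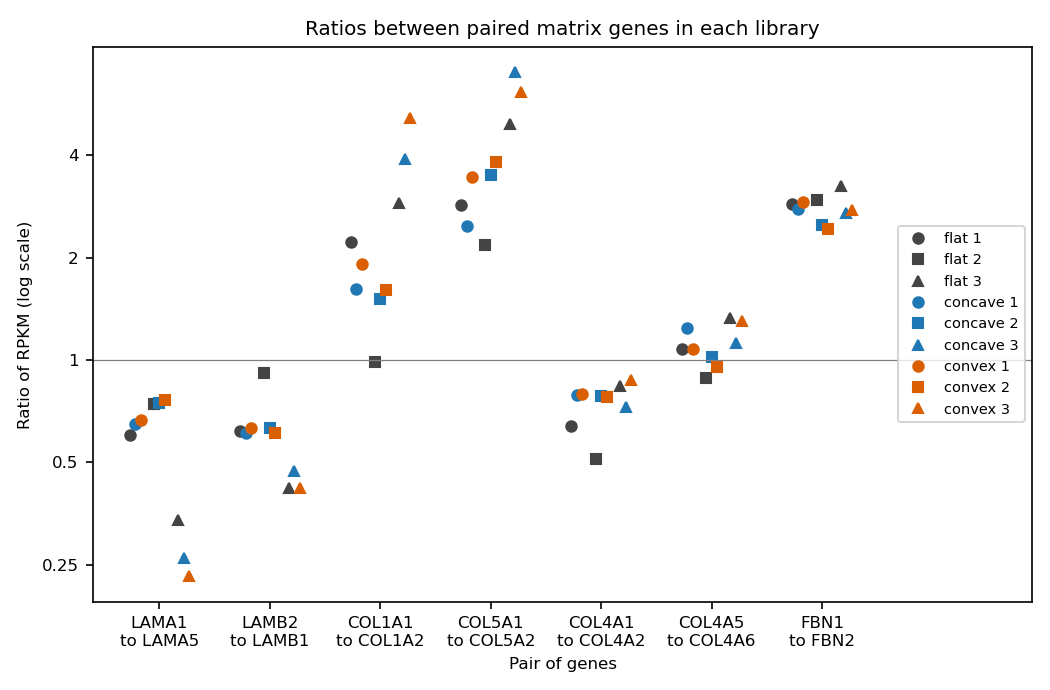
Ratio of RPKM (log axis) for 7 of the 14 pairs of matrix genes, 1 point per library, with colour for plate form and shape of the point for replicate number. Libraries numbered 3 (triangles) lie apart for LAMA1 to LAMA5, LAMB2 to LAMB1, COL1A1 to COL1A2 and COL5A1 to COL5A2. For COL4A1 to COL4A2, convex 3 (0.876) and flat 3 (0.839) lie highest and concave 3 (0.729) lies among the rest. For FBN1 to FBN2, flat 3 (3.25) lies highest and concave 3 and convex 3 lie among the rest.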

How the data were processed

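The labels describe poly-T selected mRNA, a stranded Illumina kit and 9 libraries. The authors deposited 1 table of raw counts per Ensembl gene. Per the submitters' processing notes, HISAT2 and featureCounts were used on GRCh38; their versions, the strand setting of the counting and the annotation release were not given in the sources used here. Names came from the table of gene names and positions and transcript lengths (median of principal transcripts) from GENCODE 29.

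From the counts, genes were kept by filterByExpr (23075), scaled by TMM and fitted with edgeR 4.0.16 (glmQLFit, robust) in R 4.3.3, with p adjusted by Benjamini-Hochberg over all genes of a comparison and a threshold of 0.05. Plate forms were compared with 1 coefficient per group, and replicate numbers with plate form as a term. The length correction subtracted in each library a lowess curve (span 0.3) of log2 deviation on log2 length. limma 3.58.1 and DESeq2 1.42.0 were alternatives. The common biological coefficient of variation was 0.329. The fit was tested on simulated data.

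Members and lists were chosen with earlier results of these data known. Library values are given for the 2 members per role highest in RPKM and the 3 with the smallest p per comparison. Of other matrix lists, up to 3 genes with the smallest p among those that passed and averaged at least 1 CPM are named, and a few genes this would name are not reported here. COL3A1 was not tested.

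Same-numbered libraries were checked for pairing by correlating deviations from group means over genes. Concave and convex libraries gave r = 0.54, 0.264 and 0.573 for numbers 1, 2 and 3. Convex with flat gave 0.326, 0.361 and 0.581, and concave with flat 0.337, 0.00829 and 0.305. A minimum of 0.1 was met in every case but number 2 of concave with flat, the pair that holds flat 2. These correlations do not settle whether same-numbered libraries belong together.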

Additional observations from a re-analysis of the deposited data

How the results depend on the processing

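Depth limited LOX and COL3A1 only, since every other member had at least 107 counts in each library. Genes at an unadjusted p under 0.05 numbered 1047 (concave against flat), 2135 (convex against flat), 65 (concave against convex) and 897 in the F test over 3 plate forms, where 0 passed adjustment; 3 members did so for convex against flat. DESeq2 called 1 gene for convex against flat. The convex median of members was -0.035 with flat 2 left out and the length correction, a setting chosen after the data were seen. With the replicate block, 0 genes and 0 members passed in each plate comparison, the medians were 0.25, 0.31 and -0.045, and the block changed no other call. Leaving out 1 library at a time, concave against convex ranged from -0.60 to 1.38 for LOX, from -0.050 to 0.39 for COL1A2 and from -0.26 to 0.70 for COL11A1, each below 0 only without concave 1. For number 3 against 1 and 2, leaving out 1 library gave 1077 (convex 3) to 5575 genes (flat 2) and 2 to 21 members against 4137 and 14. With flat 2 left out and the length correction there were 6236 genes and 22 members, and at an adjusted p under 0.01 there were 1627 and 2. For number 2 against 1, where 0 passed, leaving out 1 library gave 0 to 11 genes; RLE scaling gave 1 gene, an adjusted p under 0.1 gave 1, the length correction 2, and flat 2 left out with that correction 26 genes and 1 member. No filter gave 108 genes and 1 member, and DESeq2 154 and 1. The causes of these changes were not tested.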

Other observations

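Other matrix genes were counted in 6 lists, drawn up with earlier results of these data known. Between plate forms, 0 genes of the 6 lists passed (edgeR, adjusted over all genes). Between libraries numbered 3 and the other 6, 8.79% of all genes passed as higher and 9.14% as lower. Over all genes, leaving out convex 3 took the calls from 4137 to 1077, so these shares do not serve where a library is left out. They are the background for each count below that uses all 9 libraries. These counts depend on single libraries: leaving out convex 3 took the calls from 10 to 1 for other collagens, from 11 to 5 for other laminins and basement membrane genes, from 17 to 8 for glycoproteins and proteoglycans, from 8 to 2 for collagen processing, from 6 to 4 for proteases and inhibitors and from 4 to 0 for receptors. Without concave 1 these counts were 3, 9, 9, 4, 4 and 2, without convex 1 they were 3, 8, 10, 5, 4 and 2, and without convex 2 they were 5, 9, 10, 4, 4 and 2. Other collagens had 6 without flat 1 and 5 without concave 3, collagen processing had 5 without flat 3, glycoproteins and proteoglycans had 11 without flat 3, and proteases and inhibitors had 12 without flat 2. Calls over all genes also changed with the library left out, so no change here is read as particular to a list. Other laminins and basement membrane genes had 10 higher and 1 lower of 20 tested, with a median of 0.58. LAMB3, a laminin beta chain of stratified epithelia, rose from 0.949 ± 0.377 CPM (SD, n = 6) to 4.06 ± 0.516 (SD, n = 3). SMOC1, a SPARC-related protein of basement membranes, fell from 293 ± 47.5 to 66.9 ± 24.3 CPM, by 2.16 on the log2 scale (edgeR adjusted p = 0.000638). Other collagens moved both ways, 5 higher and 5 lower of 23. COL9A2, a partner chain of COL9A3, fell from 15.7 ± 3.67 to 4.99 ± 0.477 CPM, and COL17A1, the transmembrane collagen of hemidesmosomes, from 19.2 ± 1.04 to 11.7 ± 1.56. COL12A1 rose from 0.926 ± 0.697 to 3.11 ± 2.35 CPM.

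Other glycoproteins and proteoglycans had 8 higher and 9 lower of 36 tested (background for each count here 8.79% higher and 9.14% lower). LTBP4, which stores latent TGF-beta in the matrix, fell from 113 ± 18.9 to 48.4 ± 5.15 CPM (log2 -1.22, edgeR adjusted p = 0.000484) and THBS4 from 26.75 ± 4.04 to 13.3 ± 1.86. HAPLN3, a hyaluronan link protein, rose from 45.4 ± 9.19 to 102 ± 15.8. Proteases and inhibitors had 5 higher and 1 lower of 22. TIMP4, an inhibitor of metalloproteases, rose from 0.448 ± 0.198 to 2.16 ± 0.479 CPM and the membrane protease MMP24 from 23.9 ± 7.30 to 58.9 ± 6.73. Collagen processing genes had 4 higher and 4 lower of 28, with the prolyl hydroxylase P3H2 at 24.4 ± 3.68 and 48.1 ± 3.24 CPM, LOXL1 at 76.8 ± 11.8 and 38.5 ± 7.43 and COLGALT2 at 11.01 ± 1.47 and 6.38 ± 0.877. Of 17 matrix receptors, 3 were higher and 1 lower: ITGA5, the fibronectin receptor chain, fell from 139.7 ± 14.5 to 79.2 ± 7.73 CPM, while CD44 rose from 3.69 ± 0.774 to 7.86 ± 1.46 and BCAM, a receptor for LAMA5, from 132.5 ± 23.0 to 215.5 ± 42.65. The cell type markers counted in the report moved with the same libraries, and their part in these differences was not tested.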
